A study of Macaca mulatta with 2 samples.

Results

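The 10 genes described here are those in which inherited or strongly heritable forms of glaucoma have been mapped in people. They were taken by symbol, *MYOC*, *OPTN*, *TBK1*, *CYP1B1*, *LTBP2*, *WDR36*, *TEK*, *ANGPT1*, *EFEMP1* and *LOXL1*, and all 10 were found among the 16684 genes of the deposited table. The study sequenced RNA from untreated wild-type optic nerve of rhesus macaque (*Macaca mulatta*), 1 condition with 2 libraries named Rep1 and Rep2. The study's methods name 1 adult male as the source of the sequenced nerves, whereas the series design speaks of a pair of macaques, so the spread between the libraries is that of nerves whose animal of origin is not settled. The unit is TPM (transcripts per 1000000), a read count divided by gene length and by the total of all length-corrected reads of the library. With 1 condition there was nothing to test against, and every value below is a description with its spread over 2 libraries.

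Glaucoma is a loss of retinal ganglion cells and of their axons, which run through the optic nerve, and raised eye pressure is its main risk factor. Most genes of the inherited forms act where aqueous humour leaves the eye, in the trabecular meshwork and Schlemm's canal, or in the matrix that carries these tissues. *OPTN* and *TBK1* stand apart, because their variants are known from glaucoma at normal pressure and from motor neuron disease. The optic nerve is therefore not the tissue in which most of these genes are best known, and it holds oligodendrocytes, astrocytes, microglia, vessels and the fibroblasts of its meningeal sheath.

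The stretches of genome upstream of 3 members are shown first, since *EFEMP1* and *MYOC* carried most of the transcripts of the list and *CYP1B1* is a textbook target of a transcription factor, the aryl hydrocarbon receptor. Each holds the 250 bases before the annotated gene start in Mmul_10, read 5′ to 3′ on the strand of the gene, and capitals mark TATAAA or GCGTG on either strand, the TATA box and the core bound by the aryl hydrocarbon receptor. The *EFEMP1* stretch is chr13:52736053-52736302 on the plus strand, that of *MYOC* is chr1:28975471-28975720 on the minus strand, and that of *CYP1B1* is chr13:70839903-70840152 on the plus strand.
EFEMP1: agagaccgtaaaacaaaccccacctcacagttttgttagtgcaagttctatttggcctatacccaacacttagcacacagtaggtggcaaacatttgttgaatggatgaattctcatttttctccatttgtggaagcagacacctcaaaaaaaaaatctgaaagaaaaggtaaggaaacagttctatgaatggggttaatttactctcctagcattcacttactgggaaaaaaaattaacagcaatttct
MYOC: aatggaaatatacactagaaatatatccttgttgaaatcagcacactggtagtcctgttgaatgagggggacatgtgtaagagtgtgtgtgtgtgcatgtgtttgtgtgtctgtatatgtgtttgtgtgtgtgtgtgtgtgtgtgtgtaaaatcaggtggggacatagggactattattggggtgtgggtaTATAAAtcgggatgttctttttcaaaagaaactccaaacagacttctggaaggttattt
CYP1B1: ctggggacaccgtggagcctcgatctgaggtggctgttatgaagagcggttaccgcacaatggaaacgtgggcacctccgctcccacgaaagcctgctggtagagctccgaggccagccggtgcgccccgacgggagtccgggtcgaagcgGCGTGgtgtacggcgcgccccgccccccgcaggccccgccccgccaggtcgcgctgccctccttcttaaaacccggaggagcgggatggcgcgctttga
The *MYOC* stretch held the only TATAAA among the 10 members, beginning 59 bases before the annotated start, whereas 8.51% of the 16672 upstream stretches of listed genes held one. The core GCGTG was found upstream of *CYP1B1*, *OPTN*, *TBK1* and *WDR36*, 4 of 10 members, against 37.0% of all stretches. Base composition separated the members widely. The stretch of *EFEMP1* had 36.8% G and C with 1 CpG, that of *MYOC* 39.6% with 1 CpG, and that of *LTBP2* 80.4% with 35 CpGs, where the median of all stretches was 59.2% and 14 CpGs. Gene starts in this annotation are models, and a motif match is a description of letters, not a site.

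The libraries were not of equal depth, and Rep1 stood apart. Each column summed to 1000000 TPM, so read totals are not in the table, but the value of 1 read in Rep1 equalled that of 17.2 reads in Rep2, and 6425 genes (38.5%) were listed at 0 in Rep1 against 2082 (12.5%) in Rep2. The smallest whole read numbers that give a gene's pair of values are stated below as lower bounds. Scaling by the median of ratios, taken over the 10168 genes above 0 in both libraries, put Rep1 below Rep2 by a log2 shift of -1.19. All 8 oligodendrocyte and all 8 astrocyte markers were above 0 in both libraries. The oligodendrocyte genes summed to 46086 TPM in Rep1 against 212682 TPM in Rep2, of which *MBP* alone held 43721.5 and 199595 TPM. Astrocyte genes summed to 1213 and 7612 TPM. Erythrocyte genes summed to 4538 and 1099 TPM, above the astrocyte sum in Rep1, with *HBB* alone at 4515 and 1087 TPM. Rep1 also carried photoreceptor transcripts, whose 8 markers summed to 3322 TPM there and to 10.2 TPM in Rep2, with none of them at 0 in Rep1. Their part in the values below was not tested, and in bulk tissue fewer cells of a type and less RNA per cell cannot be told apart.

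All 10 members were above 0 in both libraries, where 83.7% of the 11754 genes averaging at least 1 TPM were. Their mean levels ran from 2.96 TPM in *WDR36* to 945 TPM in *EFEMP1*, with a median of 46.8 TPM, against 9.55 TPM over the 14693 genes detected in either library. By mean level, 5 of the 10 lay at percentile 75 or higher of those genes, where 25% of genes do by construction. *EFEMP1* and *MYOC* together made up 78.9% of the members' summed TPM in Rep1 and 80.7% in Rep2.

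**Figure D1:**
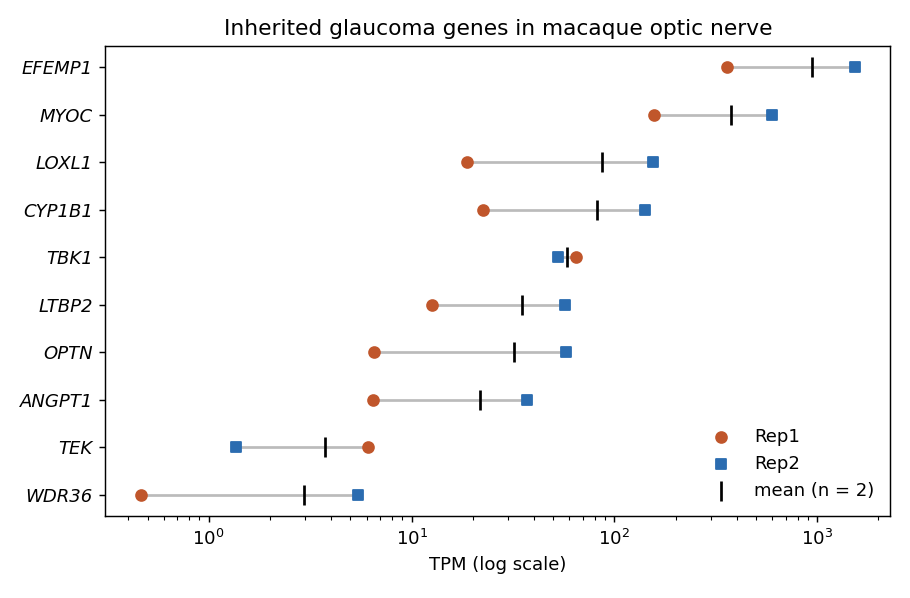
TPM of each of the 10 genes (rows, ordered by mean) in Rep1 (circles) and Rep2 (squares) on a log axis, with the mean of both as a vertical tick. *EFEMP1* and *MYOC* lead in both libraries, and *TBK1* and *TEK* are the only genes with Rep1 to the right of Rep2.

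*EFEMP1* encodes fibulin-3, a secreted glycoprotein of basement membranes and elastic fibres in which variants cause familial glaucoma and a macular dystrophy. The gene lies on chromosome 13 from 52736303 to 52794411 on the plus strand, and its longest transcript has 11 exons and 2530 bases. It stood at 359 TPM in Rep1 against 1530 TPM in Rep2, on at least 211 and 15443 reads, which gives 945 ± 828 TPM (SD, n = 2) and percentile 99.2. This was the highest level of the list in each library. On the log2(TPM + 1) scale the difference, Rep1 minus Rep2, was -2.09, and -0.90 after the median of ratios. Among the 200 genes nearest in mean level the median difference as deposited was 1.44, and 65.5% of them were higher in Rep1. *EFEMP1* thus differed in the direction opposite to most genes of its level.

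*MYOC* encodes myocilin, a secreted protein of the trabecular meshwork whose misfolded mutants cause juvenile and adult open-angle glaucoma. It lies on chromosome 1 from 28959250 to 28975470 on the minus strand and has 3 exons, with a coding sequence of 491 codons. Its values were 157 TPM in Rep1 against 597 TPM in Rep2, on at least 83 and 5442 reads, or 377 ± 312 TPM (SD, n = 2) at percentile 97.3. The difference was -1.93 as deposited, where the 200 nearest genes had a median of 0.95. After scaling, which moves the nearest genes as well, it was -0.74. *MYOC* was thus second in both libraries, and its distance to *EFEMP1* hardly moved. The ratio of *EFEMP1* to *MYOC* was 2.30 in Rep1 and 2.56 in Rep2. Against the glial markers, *MYOC* stood at 0.238 of *GFAP* in Rep1 and 0.138 in Rep2, and against *DCN* (decorin, a fibroblast proteoglycan) at 0.157 and 0.0569. *MYOC* is also known from skeletal muscle, whose 8 markers summed to 9.42 TPM in Rep1 against 34.7 TPM in Rep2. Of these, *TNNT3* was at 0.958 and 28.6 TPM, whereas *ACTA1* was at 6.54 and 0.127 TPM and *CKM* at 0.596 and 0 TPM. *MYH1*, *MYH2* and *MB* were at 0 in both.

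Other olfactomedin-domain genes went in both directions. Of the 8 averaging at least 1 TPM, 5 were at least 2-fold higher in Rep2 and 2 in Rep1, near the 58.7% and 18.2% of all tested genes, and after the median of ratios 3 were so in each direction, where 40.2% and 28.8% of genes were. *OLFML3*, a secreted matrix protein, was at 49.5 TPM in Rep1 against 160 TPM in Rep2, and *OLFML1* at 6.87 and 79.5 TPM. *OLFM1*, a neuronal glycoprotein, went the other way, with 495 TPM in Rep1 against 28.6 TPM in Rep2, the direction of 4 of the 8 photoreceptor markers, whose part was not tested.

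The matrix members *LOXL1* and *LTBP2* both lie on chromosome 7. *LOXL1*, from 50752136 to 50778234 on the plus strand, encodes a lysyl oxidase that cross-links elastin and is the main risk gene of pseudoexfoliation glaucoma. It was at 18.7 TPM in Rep1 against 155 TPM in Rep2, on at least 21 and 3001 reads, or 87.0 ± 96.7 TPM (SD, n = 2) at percentile 87.3. Its difference was -2.99, and -1.83 after scaling. Exons of *LOXL1* overlap those of a long non-coding RNA on the opposite strand, and the sources used here do not say whether strand was counted.

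*LTBP2*, from 136610365 to 136725544 on the minus strand, encodes a microfibril-associated protein of the ciliary zonule and is mutated in congenital glaucoma. Its 36 exons make the longest transcript of the list, 8861 bases. It stood at 12.6 TPM in Rep1 against 57.3 TPM in Rep2, on at least 11 and 860 reads, or 34.9 ± 31.6 TPM (SD, n = 2) at percentile 74.2. The difference was -2.10 as deposited, where the 200 nearest genes had a median of -1.01. After scaling, which moves the nearest genes as well, it was -0.96.

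The elastic fibre partners of these genes were higher in Rep2 without exception among those averaging at least 1 TPM. All 13 were at least 2-fold higher there, where 58.7% of all tested genes were, and 11 of 13 were so after the median of ratios, where 40.2% of genes were. Meningeal fibroblast markers had the same direction, 8 of 8 and a sum of 1990 TPM in Rep1 against 17402 TPM in Rep2. This was not particular to them, as 8 of 8 oligodendrocyte and 7 of 8 astrocyte markers were at least 2-fold higher in Rep2. After the median of ratios 7 of 8 fibroblast, 7 of 8 oligodendrocyte and 4 of 8 astrocyte markers were so. Of 8 photoreceptor markers 0 were so, as deposited or scaled. The part of these cells in the values was not tested. *MFAP4* was at 160 and 1202 TPM, *FBLN1* at 154 and 858 TPM, and *LTBP4* at 9.97 and 224 TPM. *ELN*, which encodes elastin itself, had 0 in Rep1 and 59.2 TPM in Rep2.

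The ratios of 3 members to a family partner moved less than their levels. The ratio of *LTBP2* to *LTBP1* was 1.66 in Rep1 and 1.504 in Rep2, that of *LOXL1* to *LOX* was 4.87 and 3.88, and that of *EFEMP1* to its paralog *EFEMP2* was 3.97 and 4.93. In Rep1, *LTBP1*, *LOX* and *EFEMP2* rested on at least 17, 6 and 1 reads. The ratios were chosen after the values were seen, and no share over other gene pairs was computed. In each of these 3 pairs the glaucoma gene was the more abundant one in both libraries. The other latent TGF-beta binding genes did not keep to this, as *LTBP4* was at 0.792 of *LTBP2* in Rep1 and 3.91 times it in Rep2, and *LTBP3* at 8.20 TPM in Rep1, below *LTBP2*, and 67.7 TPM in Rep2, above it. These families are paralogs, and the levels are uncertain to the extent that reads could be assigned to either copy. Ratios between genes also depend on the gene lengths the authors used, which the sources do not give, whereas the change of a ratio between libraries does not.

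**Figure D2:**
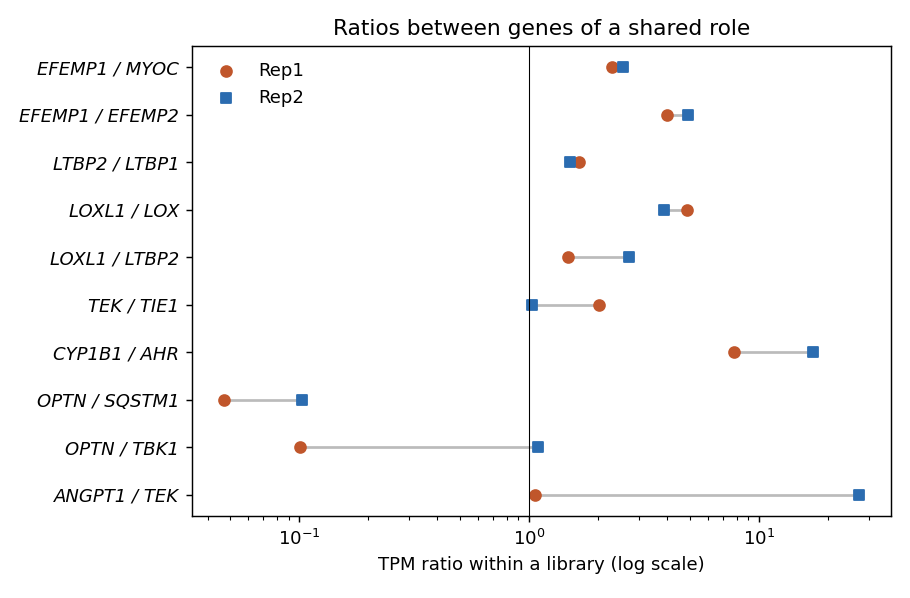
TPM ratio of gene pairs of a shared role within Rep1 (circles) and Rep2 (squares) on a log axis, with a line at a ratio of 1. The libraries lie close together in the 4 upper pairs, such as *EFEMP1* over *MYOC* with 2.30 and 2.56, whereas *OPTN* over *TBK1* and *ANGPT1* over *TEK* lie far apart.

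*CYP1B1* encodes a cytochrome P450 that metabolizes steroids and retinoids, and its loss is the commonest known cause of primary congenital glaucoma. It lies on chromosome 13 from 70840153 to 70848698 on the plus strand, with 3 exons. It was at 22.5 TPM in Rep1 against 142 TPM in Rep2, on at least 17 and 1837 reads, or 82.1 ± 84.3 TPM (SD, n = 2) at percentile 86.7. The difference was -2.60, and -1.44 after scaling. The related enzymes were near or at the bottom of the table. *CYP1A2* was listed at 0 in both libraries and *CYP1A1* at 0 in Rep1 and 0.147 TPM in Rep2, so *CYP1B1* was the leading CYP1 gene. *AHR*, the receptor that drives these genes, was at 2.89 and 8.23 TPM, the former on at least 1 read, and its partner *ARNT* at 81.6 and 56.8 TPM. The repressor *AHRR*, also a target, was listed at 0 in both. Of the 5 genes of this list averaging at least 1 TPM, 2 were at least 2-fold higher in Rep2 and 0 in Rep1, where 58.7% and 18.2% of all tested genes were, and after the median of ratios 1 and 2, where 40.2% and 28.8% were.

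*OPTN* and *TBK1* work together, as the kinase TBK1 phosphorylates optineurin, the receptor that delivers damaged mitochondria and bacteria to autophagosomes. *OPTN*, on chromosome 9 from 14253526 to 14305816 on the plus strand, was at 6.56 TPM in Rep1 against 57.6 TPM in Rep2, on at least 11 and 1660 reads, or 32.1 ± 36.1 TPM (SD, n = 2) at percentile 72.6. *TBK1*, on chromosome 11 from 64001821 to 64050597 on the plus strand, was at 64.9 TPM in Rep1 against 52.4 TPM in Rep2, on at least 33 and 458 reads, or 58.7 ± 8.83 TPM (SD, n = 2) at percentile 82.3. *TBK1* was the one member within 2-fold between the libraries, with a difference of 0.30, which became 1.47 after the median of ratios. *OPTN* had -2.95, and -1.84 after it. Kinase and receptor therefore did not keep their proportion. *OPTN* stood at 0.101 of *TBK1* in Rep1 and at 1.10 in Rep2. As deposited, each gene's own difference lay between the 10th and 90th percentile of its 200 nearest genes. These percentiles were -3.52 and 1.55 for *OPTN* and -2.75 and 2.88 for *TBK1*, so neither gene stood out from genes of its level.

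Their partners were likewise mixed. Of 11 autophagy receptors and TBK1 partners averaging at least 1 TPM, 6 were at least 2-fold higher in Rep2 and 1 in Rep1. Of all tested genes, 58.7% and 18.2% were. After the median of ratios 4 were so in each direction, where 40.2% and 28.8% of genes were. *SQSTM1*, the receptor p62, was at 140 TPM in Rep1 against 561 TPM in Rep2, and *CALCOCO2* at 56.6 and 299 TPM. *TAX1BP1* was at 245 TPM in Rep1 against 70.2 TPM in Rep2, the gene counted higher in Rep1. *GABARAP*, which anchors the receptors to the autophagosome, was nearly equal as deposited, with 1007 TPM in each library, and higher in Rep1 by a log2 difference of 1.19 after the median of ratios. *SQSTM1* exceeded *OPTN* in both, by ratios of *OPTN* to *SQSTM1* of 0.0470 and 0.103.

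*ANGPT1* and *TEK* are ligand and receptor. Angiopoietin-1 activates the endothelial receptor TIE2, the product of *TEK*, and loss of either leaves Schlemm's canal malformed and causes congenital glaucoma. *ANGPT1*, on chromosome 8 from 107466829 to 107721255 on the minus strand, was at 6.48 TPM in Rep1 against 37.0 TPM in Rep2, on at least 10 and 981 reads, or 21.7 ± 21.6 TPM (SD, n = 2) at percentile 65.6. *TEK*, on chromosome 15 from 56522803 to 56644903 on the minus strand, was at 6.10 TPM in Rep1 against 1.36 TPM in Rep2, on at least 6 and 23 reads, or 3.73 ± 3.35 TPM (SD, n = 2) at percentile 34.9. *TEK* was the one member at least 2-fold higher in Rep1, as 18.2% of all tested genes were.

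The difference of *TEK* was 1.59, and 2.43 after scaling. As deposited it lay above the 90th percentile of its 200 nearest genes, which was 0.65, and no other member lay above that percentile. Among the 200 genes nearest to *TEK* in Rep2, 63.0% were listed at 0 in Rep1. The ratio of *ANGPT1* to *TEK* was consequently 1.06 in Rep1 and 27.2 in Rep2. Of 7 endothelial markers averaging at least 1 TPM, 5 were at least 2-fold higher in Rep2 and 0 in Rep1 (2 and 1 after the median of ratios), where 58.7% and 18.2% of all tested genes were (40.2% and 28.8%), and the 8 markers summed to 58.3 TPM in Rep1 against 148 TPM in Rep2. *CDH5* (VE-cadherin) was at 1.77 and 18.8 TPM and *KDR* (VEGF receptor) at 20.8 and 18.7 TPM, whereas the related receptor *TIE1* was at 3.02 and 1.32 TPM, on at least 2 and 15 reads. The other ligands were low, *ANGPT2* being listed at 0 in Rep1 and at 2.86 TPM in Rep2 and *ANGPT4* at 0 in both. *ANGPTL7*, a secreted factor of the meshwork and sclera in which loss lowers eye pressure, was the highest of this list, at 29.2 and 329 TPM. Of the 4 genes of the list averaging at least 1 TPM, 3 were at least 2-fold higher in Rep2 and 0 in Rep1, where 58.7% and 18.2% of all tested genes were, and after the median of ratios 3 and 1, where 40.2% and 28.8% were.

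*WDR36* encodes a subunit of UTP-B, a complex that processes ribosomal RNA in the nucleolus, and its part in glaucoma is disputed. It lies on chromosome 6 from 108506657 to 108544472 on the plus strand, with 23 exons. It was the lowest member on the mean, at 0.465 TPM in Rep1 against 5.46 TPM in Rep2, or 2.96 ± 3.53 TPM (SD, n = 2) at percentile 31.9. The value in Rep1 may rest on a single read, as the smallest numbers were 1 and 202, so its difference of -2.14 says little. Among the 200 genes nearest to it in Rep2, 33.0% were listed at 0 in Rep1. The other 5 subunits of UTP-B were all at least 2-fold higher in Rep2, where 58.7% of all tested genes were, and 4 of 5 after the median of ratios, where 40.2% were. The Rep1 values of *PWP2*, *UTP6* and *UTP18* may each rest on 1 read. *UTP18* was at 10.01 and 68.7 TPM and *WDR3* at 3.35 and 18.2 TPM, so that *WDR36* stood at 0.139 of *WDR3* in Rep1 and 0.300 in Rep2. Exons of *WDR36* and *ANGPT1*, like those of *LOXL1*, overlap a long non-coding RNA on the opposite strand.

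Set side by side, 9 of the 10 members differed at least 2-fold between the libraries in either direction, as did 76.9% of all tested genes. Of the 10 members, 8 were at least 2-fold higher in Rep2, where 58.7% of all tested genes were, and 1 was so in Rep1, where 18.2% were. After the median of ratios 5 members were at least 2-fold higher in Rep2, against 40.2% of genes, and 2 in Rep1, against 28.8%. The members' median difference was -2.12, beside -1.52 over all genes averaging at least 1 TPM. Against the median of their own 200 nearest genes, 7 members were lower in Rep1 and 3, *TBK1*, *TEK* and *WDR36*, were higher.

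**Figure D3:**
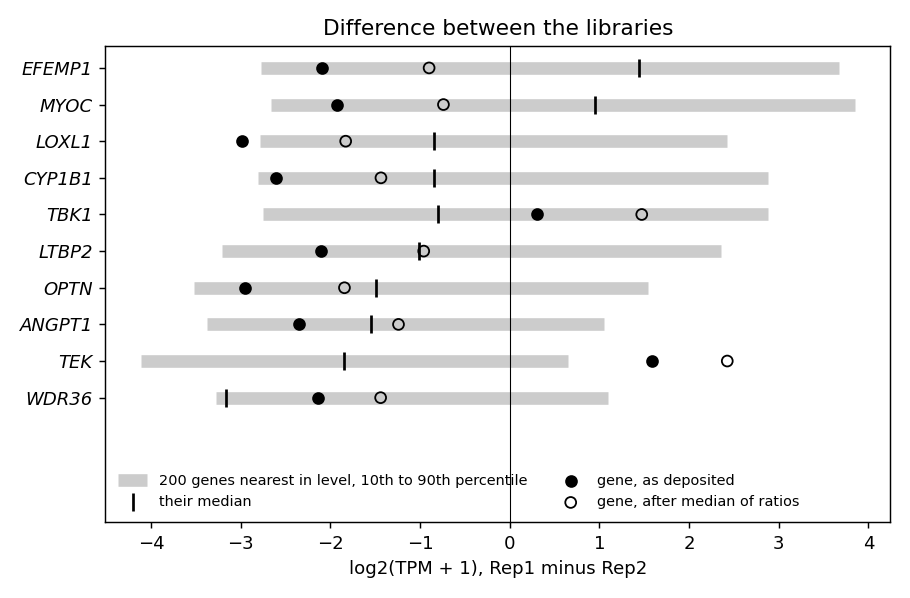
Difference of log2(TPM + 1), Rep1 minus Rep2, for each gene as deposited (filled) and scaled by the median of ratios (open), over a grey bar from the 10th to the 90th percentile of the 200 genes nearest in mean level, whose median is ticked. Bars and their medians are of the values as deposited, so only the filled points can be read against them. As deposited, *LOXL1* (-2.99) lies just below its bar and *TEK* (1.59) above its bar.

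The order of the members held in part. Of the 45 pairs, 38 stood in the same order in both libraries and 7 did not. *TBK1* was in 4 of those 7, being at rank 3 in Rep1 and rank 7 in Rep2, and *TEK* with *WDR36* made another. Neighbours in the order of the mean lay mostly within 1 SD of each other. The yardstick was a single-library SD, taken from the 200 genes nearest in level to each gene and between 1.47 and 1.97 on the log2(TPM + 1) scale. Any shift between the libraries counts as spread in it, though a shift common to neighbouring genes leaves their order alone, so this yardstick is wide. By it, 2 of 9 neighbouring pairs differed by more than 1 SD. These were *MYOC* over *LOXL1*, by 1.49 SDs, and *ANGPT1* over *TEK*, by 1.15 SDs. *EFEMP1* and *MYOC* differed by 0.694 SDs, *LOXL1* and *CYP1B1* by -0.042 SDs and *CYP1B1* and *TBK1* by -0.022 SDs, negative because the mean of logs put the second gene of each pair higher. Over all pairs, 31 of 45 differed by more than 1 SD.

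The genes whose pair of values lay nearest to the top 3 members were *GLUL* and *DYNC1LI2* for *EFEMP1*, *DPYSL2* and *C1S* for *MYOC*, and *SSR4* and *HSPB6* for *LOXL1*. Likeness was the distance in log2(TPM + 1) over both libraries, 0.029 for *GLUL* and 0.053 for *DPYSL2*, and with 2 libraries it compares levels only. *GLUL*, glutamine synthetase, was at 364 TPM in Rep1 against 1506 TPM in Rep2.

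**Figure D4:**
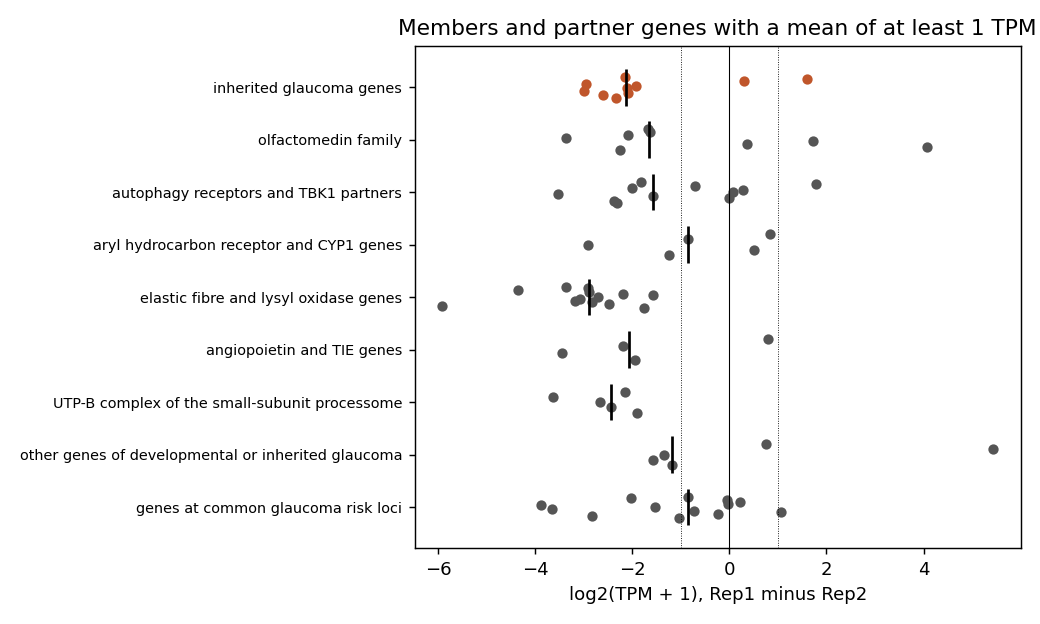
Difference of log2(TPM + 1), Rep1 minus Rep2, of the 10 members (coloured) and of the partner lists (grey), 1 point a gene averaging at least 1 TPM, with the list median as a vertical line and dotted lines at 2-fold. All 13 elastic fibre genes lie left of the dotted line at -1, and *PAX6* (5.43) is the point farthest to the right.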

How the data were processed

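Per the labels and the study's methods, total RNA from macaque optic nerves was amplified with a SMARTer v4 kit for low input and sequenced. The authors used Trim Galore 0.6.6 for trimming, STAR 2.7.1a for alignment to Mmul_10 and featureCounts 1.5.3 for counts per gene and deposited TPM values for 16684 genes in 2 libraries, not pooled. Gene lengths and strand setting are not given in the sources used here. Nothing pairs Rep1 and Rep2 with the sample titles. TPM depends on all other transcripts of a library, so an abundant one lowers the rest.

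Values were analysed with Python 3.11, numpy 2.4.6 and pandas 2.3.3 and drawn with matplotlib 3.10.9. Library differences are on the log2(TPM + 1) scale, in which changes of low genes come out too small. Whole read numbers came from the ratio of a gene's values, with a tolerance of 1e-12, and 99.9% of 10168 genes above 0 in both gave them. They are lower bounds, and amplified copies are not independent molecules. No interval or detection limit can be had without depth. The single-library SD was the root mean square difference of the nearest genes divided by the square root of 2. The read and SD steps were tested on simulated data. Coordinates and upstream bases came from the RefSeq annotation and genome of Mmul_10, in which 16676 symbols were placed on chromosomes.

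The members and lists were chosen with earlier results of these data known, and the ratios were chosen after the values were seen. The 8 partner lists hold 77 genes and the 11 marker lists 84, and 1 further gene is not reported here. The rule for named genes took every member, the genes of these lists, and the 2 genes nearest in both libraries to each of the 3 highest members. Alternatives were the geometric mean, a pseudocount of 0.1, 500 nearest genes, ranking in other sets of genes, removal of the 10 most abundant genes, single libraries, and scaling by the median of ratios.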

Additional observations from a re-analysis of the deposited data

How the results depend on the processing

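No paired analysis was possible because there was only 1 condition. Leaving single libraries aside, 94 values were recomputed. The limit was the spread between the libraries for levels and percentiles, and the single-library SD of 1.47 to 1.97 for differences. For counts and shares of genes it was 1.5 times. By these limits 91 stayed, 3 moved and 0 reversed. Several could not move. A geometric mean of 2 values lies within their spread, and scaling does not alter the order within a library. The log2 shift of -1.19 from scaling is smaller in size than the SD used for differences. The median of the members' mean levels was 46.8 TPM, from 40.8 TPM with the geometric mean to 59.3 TPM without the 10 most abundant genes. In single libraries it was 15.6 TPM in Rep1, past the same limit and so moved, and 57.4 TPM in Rep2, within it. Of the 94 values, those that moved were *TBK1*, at 73.2 TPM without the 10 most abundant genes, and the percentile of *WDR36*. That percentile was 39.98 among all listed genes and 14.8 among genes averaging at least 1 TPM, because the set of genes ranked changes. The number of members at least 2-fold different was 9 as deposited and 7 after the median of ratios. A single library gives no order across libraries and no difference. The depth of Rep1 limits *WDR36* and *TEK*.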

Other observations

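Of 14 genes at common risk loci for glaucoma, 13 were above 0 in Rep1 and 14 in Rep2. Of all listed genes, 38.5% were at 0 in Rep1 and 12.5% in Rep2. *ATOH7* was at 0 in Rep1 and only 0.232 TPM in Rep2. Of 13 risk-locus genes averaging at least 1 TPM, 6 were at least 2-fold higher in Rep2 and 1 in Rep1, where 58.7% and 18.2% of all tested genes were, and 3 were so in each direction after the median of ratios, where 40.2% and 28.8% of genes were. *CAV1*, which encodes caveolin-1, was at 119 TPM in Rep1 against 200 TPM in Rep2, and its neighbour *CAV2* at 13.3 and 178 TPM. *GMDS*, an enzyme of fucose synthesis, was at 95.4 and 97.1 TPM, and *ATXN2*, an RNA-binding protein, at 88.8 and 42.1 TPM, the risk-locus gene counted higher in Rep1. *SIX6*, a transcription factor of the retina and optic nerve head, was at 6.02 and 6.27 TPM. After the median of ratios *CAV1*, *GMDS* and *SIX6* were higher in Rep1, by log2 differences of 0.45, 1.15 and 0.97.

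Among 8 other genes of developmental or inherited glaucoma, 5 averaged at least 1 TPM, of which 3 were at least 2-fold higher in Rep2 and 1 in Rep1, near the 58.7% and 18.2% of all tested genes, and after the median of ratios 0 and 2, where 40.2% and 28.8% of genes were. *PAX6* led this list in Rep1 but not in Rep2. This transcription factor of the eye was at 886 TPM in Rep1 against 19.6 TPM in Rep2, on at least 666 and 253 reads. Of 8 photoreceptor markers, 4 were at least 2-fold higher in Rep1 and 4 within 2-fold, and their part in this value was not tested. *FOXC1* was at 12.03 and 32.3 TPM, *CPAMD8* at 21.5 and 66.2 TPM, and *LMX1B*, *NTF4* and *ASB10* were listed at 0 in Rep1 and at 1.40, 0.417 and 0.162 TPM in Rep2.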
